A study of Rattus norvegicus with 6 samples.

Results

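The interferon response genes described here are 41 rat genes of antiviral defence and its control, chosen by symbol from those known to be induced by interferons or to carry or restrain the interferon signal. A gene was found through the RefSeq accession that the array files give for a probe. All 41 had a probe, 47 probes in all, among the 15168 genes the arrays could name. Of these, 35 were bright enough to test, among 10979 tested genes. They fall into 19 antiviral effectors, 2 RNA sensors, 5 interferon-inducible GTPases, 7 interferon regulatory factors (IRF), 2 STAT factors, 3 chemokines and 3 feedback inhibitors.

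The samples were primary Leydig cells of Sprague-Dawley rats, the testosterone-producing cells between the seminiferous tubules, cultured with fetal bovine serum at 34 °C. In 3 samples the medium held exosomes, small vesicles that primary rat Sertoli cells had released, at 5 µg/ml for 24 h. The other 3 received none and are called untreated. RNA of each sample was read on 1 one-colour Agilent array, and the labels do not say whether replicates came from separate animals or cultures, nor the age of the rats, so p-values cover only how far these 6 arrays spread.

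Interferons are secreted signalling proteins, and cells make type I interferons when they sense foreign nucleic acid. Type I interferons act through a receptor whose kinases phosphorylate STAT factors such as STAT2, which with IRF9 acts at the interferon-stimulated response element in target promoters. Interferon gamma has its own receptor, and its signal reaches promoters at the gamma-activated site. The target genes block viral entry, translation and replication, guard vacuoles through large GTPases, call lymphocytes through chemokines, and shut the signal down again through inhibitors. In the testis, Leydig cells and the macrophages beside them are known to respond to interferons, and rat Sertoli and Leydig cells have been used as models of testicular antiviral defence.

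Exosome-treated cells showed no single direction over these genes. Of the 35 tested, 5 rose (the antiviral genes Mx2, Ifi44 and Parp14, the GTPase Gbp2 and the transcription factor Stat2) and 6 fell (Ifitm2, Dhx58, Irgm, Ifi47, Irf9 and Socs1), at an adjusted p below 0.05 from limma with Benjamini-Hochberg over all 20433 tested probes. Among all tested genes 14.6% rose and 29.2% fell. The median log2 change of the 35 was 0.01, with 18 values above 0 and 17 below, while the median of all tested genes was −0.19. Under quantile normalization, which puts the median of all genes at 0.01, 9 of the 35 rose and 4 fell, where 20.2% of all genes rose and 16.1% fell. The groups' arrays did not overlap in 7 of the 35 that were higher and 12 that were lower with exosomes, as in 24.1% and 37.9% of all tested genes. Among the genes that passed, direction largely went with probe brightness, on a scale where each array's 75th percentile is 1000. Mx2, Ifi44, Gbp2 and Stat2, which rose, had means above 1000 in both groups. Dhx58, Irgm, Ifi47, Irf9 and Socs1, which fell, had means below 1000. Parp14 rose with means below 1000, and Ifitm2 fell with means above it. Whether direction depends on brightness was not tested. In bulk RNA, fewer cells of a type and less RNA per cell cannot be told apart.

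**Figure D1:**
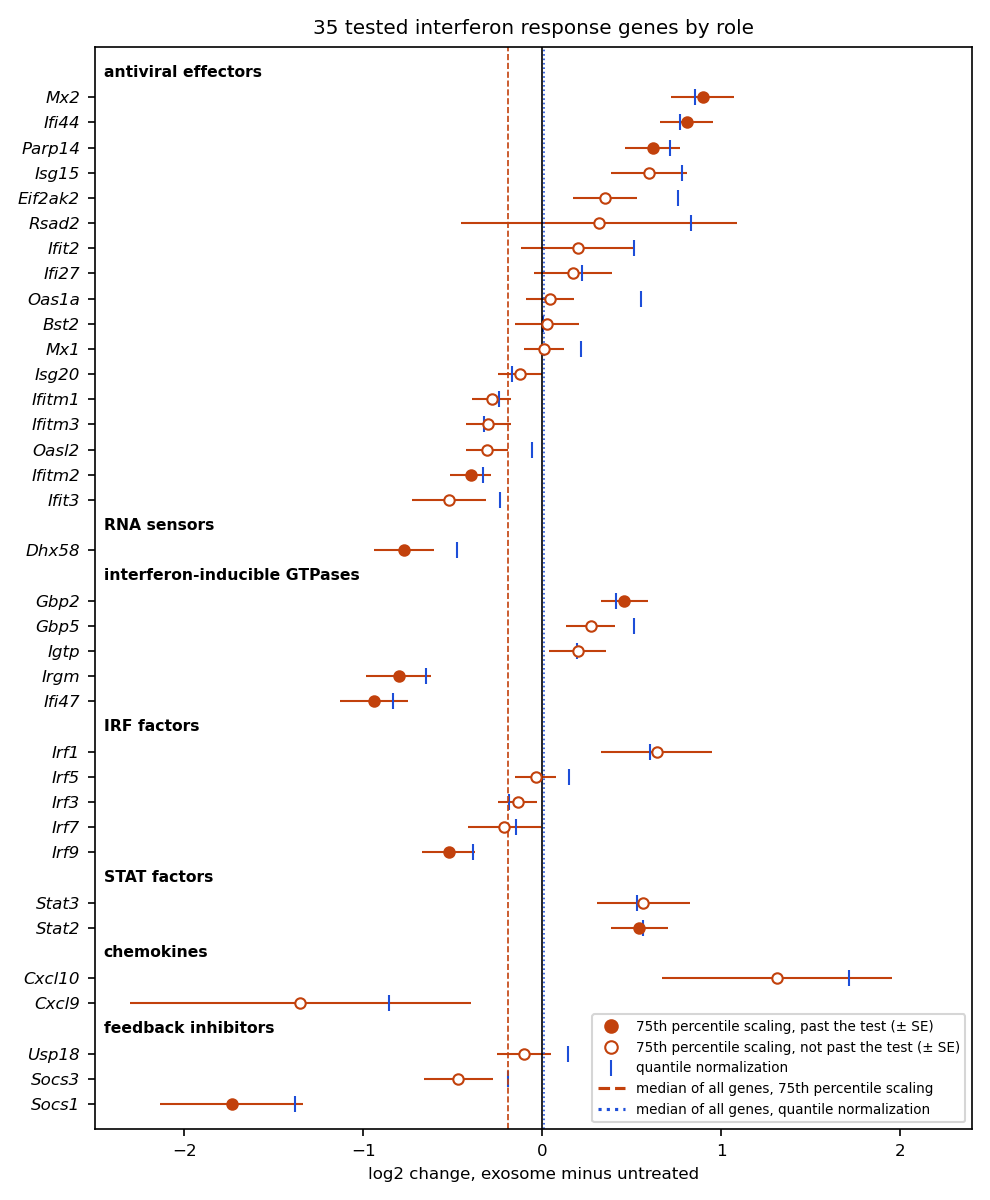
Log2 change, exosome minus untreated, of the 35 tested interferon response genes grouped by role (points, ± SE, n = 3 arrays per group; filled points passed the test), with the value under quantile normalization as a tick and the median of all genes as vertical lines. Antiviral effectors range from 0.90 for Mx2 to −0.52 for Ifit3, and the GTPases lie on both sides of 0.

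Gene spots well above background made up 67.2% to 72.2% of each exosome array and 72.6% to 75.6% of each untreated array, and no spot was saturated. Arrays of the same group correlated at r of 0.984 to 0.994 and arrays of different groups at 0.969 to 0.983. The untreated arrays shared 1 scan, exosome 1 and 2 a second, and exosome 3 had its own, so scan and group cannot be told apart. The groups' arrays did not overlap in 62.0% of all tested genes. The marker counts and medians below stand beside 14.6% of all tested genes that rose, 29.2% that fell and a median log2 change of −0.19. Of 9 Leydig cell markers 6 were tested, with sums of 117577 to 143744 on the exosome arrays and 119536 to 124441 on the untreated arrays and a median log2 change of −0.28. Cyp11a1, the enzyme that begins steroid synthesis from cholesterol, fell, with means of 780.7 on the exosome arrays and 1416 on the untreated arrays (−0.86, adjusted p = 0.0098). Star, Insl3 and Hsd3b1 were above background on every array, while Lhcgr and Nr5a1, the luteinizing hormone receptor and a steroidogenic transcription factor, were above it on 0 of 6. All 15 macrophage markers had a tested probe and 5 of them fell, with a summed level of 45435 to 51328 on the exosome arrays and 49411 to 51554 on the untreated ones. Lyz2 carried the overlap: without it the sums were 17679 to 27289 on the exosome arrays and 28066 to 29551 on the untreated arrays. Cd68 had 91.3 on exosome 3 against 8875 and 10168 on exosome 1 and 2. The list's median log2 change was −0.27. Of 8 tested Sertoli cell markers 1 rose and 2 fell, with sums of 14932 to 17154 on the exosome arrays and 21805 to 28701 on the untreated arrays, and Amh and Gata1 were above background on 0 of 6 arrays. Clu carried that difference: without it the sums were 6128 to 7860 on the exosome arrays and 5552 to 6045 on the untreated arrays. The median log2 change of all 8 tested, Clu included, was 0.02. Dimmer probes of Wt1, the marker that rose, fell past the test (−1.09 and −1.16), and the dimmer probe of Inhbb rose past it (2.34). Of 7 peritubular myoid cell markers 1 rose and 3 fell, with sums of 31987 to 39197 on the exosome arrays and 46667 to 49647 on the untreated arrays. Of 6 tested endothelial markers 2 rose and 4 fell (sums of 1320 to 1604 on the exosome arrays and 1085 to 1227 on the untreated arrays, Tek above background on 0 of 6), and of 5 tested lymphocyte markers 2 fell (sums of 290.1 to 345.9 on the exosome arrays and 393.7 to 456.6 on the untreated arrays, Cd3e on 0 of 6). The endothelial sum was carried by Pecam1, without which it was 452.2 to 487.9 on the exosome arrays and 614.0 to 668.7 on the untreated arrays. The median log2 change of all 6 tested, Pecam1 included, was −0.62. The part of these markers in the results below was not tested. All levels are scaled intensities, in which each array's 75th percentile is 1000, and they are not compared between genes as amounts of RNA.

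The promoters of the listed genes share short motifs that the choice of genes did not use, and the following sequences show where they lie in genes that rose, in genes that fell and in Igtp. RefSeq promoters on build GRCr8 (250 bases before to 50 after the gene start) were found for 33 of the 41. The interferon-stimulated response element was searched as GAAA and GAAA with 2 bases of any kind between them, and the gamma-activated site as TTCNNNGAA, on both strands, and matches may overlap. Each sequence is the 150 bases before the start on the gene's strand, 5′ to 3′, with matches in capitals. Ifi44, Parp14 and Gbp2 rose, Ifitm2, Irgm and Socs1 fell, and the brighter Igtp probe did not pass. Every promoter printed holds an interferon-stimulated response element. Not printed are Stat2, which rose and held neither motif, and Ifi47 and Irf9, which fell and held only the gamma-activated site.
Ifi44 (chr2:243303841-243303990, minus strand): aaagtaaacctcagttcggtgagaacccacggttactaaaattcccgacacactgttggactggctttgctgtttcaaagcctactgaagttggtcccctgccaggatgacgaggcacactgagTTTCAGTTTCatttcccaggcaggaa
Parp14 (chr11:78407984-78408133, plus strand): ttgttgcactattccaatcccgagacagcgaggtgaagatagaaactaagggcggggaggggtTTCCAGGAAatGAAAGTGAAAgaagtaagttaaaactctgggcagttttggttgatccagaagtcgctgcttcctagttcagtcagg
Gbp2 (chr2:234005577-234005726, plus strand): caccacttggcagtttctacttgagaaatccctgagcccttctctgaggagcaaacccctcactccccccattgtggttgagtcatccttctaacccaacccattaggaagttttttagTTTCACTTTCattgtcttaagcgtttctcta
Ifitm2 (chr1:205482349-205482498, minus strand): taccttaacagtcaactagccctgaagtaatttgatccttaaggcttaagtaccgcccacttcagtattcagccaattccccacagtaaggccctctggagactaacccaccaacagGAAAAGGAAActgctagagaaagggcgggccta
Irgm (chr10:33742579-33742728, minus strand): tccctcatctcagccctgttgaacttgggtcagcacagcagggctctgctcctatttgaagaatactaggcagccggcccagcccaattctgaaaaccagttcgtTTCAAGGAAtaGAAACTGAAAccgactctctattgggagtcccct
Socs1 (chr10:5389424-5389573, plus strand): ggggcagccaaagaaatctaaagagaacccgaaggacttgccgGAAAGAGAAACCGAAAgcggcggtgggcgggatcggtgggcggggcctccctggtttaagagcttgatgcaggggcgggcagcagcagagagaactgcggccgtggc
Igtp (chr10:42874897-42875046, plus strand): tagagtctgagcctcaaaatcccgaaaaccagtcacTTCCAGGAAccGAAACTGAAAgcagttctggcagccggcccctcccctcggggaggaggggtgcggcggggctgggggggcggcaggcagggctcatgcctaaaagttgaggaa

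The interferon-stimulated response element was found in 20 of the 33 promoters (60.6%), against 3.92% of all 33469 windows of the same length, and the gamma-activated site in 13 (39.4%), against 8.87%. Both were present in 7 promoters and neither in 7. In Parp14, Irgm and Igtp a gamma-activated site was followed, after 2 bases, by an interferon-stimulated response element. This joined form, searched after those promoters had been seen, occurred in only 7 of all 33469 windows (0.0209%), and 3 of these 7 belong to the listed genes. Of these 3, Parp14 rose, Irgm fell and Igtp had probes that differed, so carriers of the joined form did not share a direction. The interferon-stimulated response element was present in 3 of 4 matched promoters of genes that rose, 3 of 5 of genes that fell and 13 of 20 of tested genes that did not pass. The gamma-activated site was present in 1 of 4, 4 of 5 and 6 of 20 of these. By role the interferon-stimulated response element was found in 12 of 14 antiviral effectors and 4 of 5 GTPases, against 1 of 6 IRF factors and 0 of 2 STAT factors. A match describes these letters only.

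**Figure D2:**
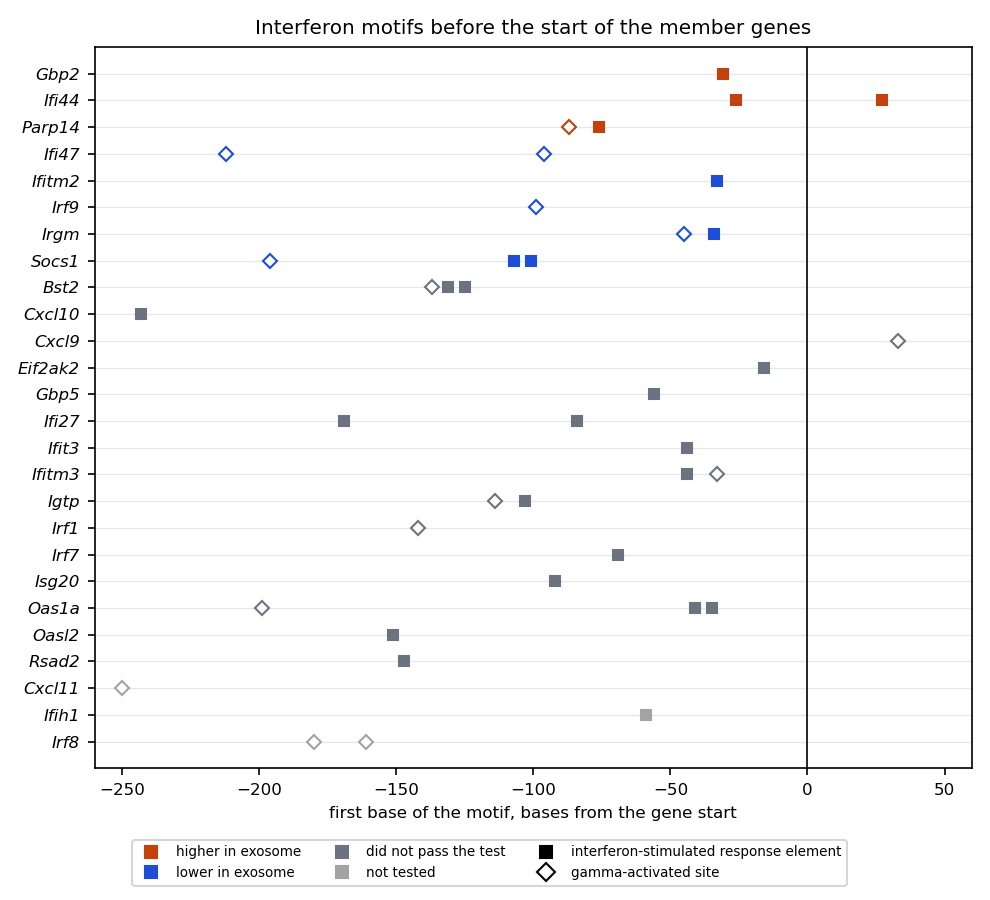
Position of each motif match in the 26 matched promoters that hold 1, with bases from the gene start on the x axis (filled squares, interferon-stimulated response element; open diamonds, gamma-activated site; colour, result of the test). Genes that rose, genes that fell and genes that did not pass each include both kinds of match. The kinds lie side by side in Parp14, Irgm and Igtp, and also in Ifitm3, in the other order, and in Bst2, where they overlap.

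Antiviral effectors act directly on viruses, and 17 of 19 were tested: Mx2, Ifi44 and Parp14 rose and Ifitm2 fell, with a median log2 change of 0.04. Mx2, a dynamin-like GTPase that blocks viral replication, had 12528, 9588 and 13104 on the exosome arrays against 7058, 6481 and 5334 on the untreated arrays. Every exosome array lay above every untreated one. The change was 0.90 ± 0.18 on the log2 scale (SE, 1.86-fold, adjusted p = 0.013, limma). Ifi44, an interferon-induced cytoplasmic protein, had 3433, 2769 and 3761 on the exosome arrays against 2030, 1845 and 1788 on the untreated arrays. Its untreated arrays lay close together and below all exosome arrays, a change of 0.81 ± 0.15 (1.75-fold, adjusted p = 0.012). Parp14, which adds ADP-ribose to proteins, had 867.2, 650.4 and 625.6 on the exosome arrays against 456.9, 455.1 and 471.8 on the untreated arrays. Exosome 1 stood highest and the groups did not overlap (0.62 ± 0.15, adjusted p = 0.023), while a second Parp14 probe was above background on 0 of 6 arrays. Ifitm2, a membrane protein that hinders fusion of viral and cell membranes, had 38211, 39034 and 36740 on the exosome arrays against 46635, 49908 and 54113 on the untreated arrays. All exosome arrays lay below the untreated ones (−0.40 ± 0.11, adjusted p = 0.032), but under quantile normalization Ifitm2 missed the test and under median centring its value was 0.01.

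**Figure D3:**
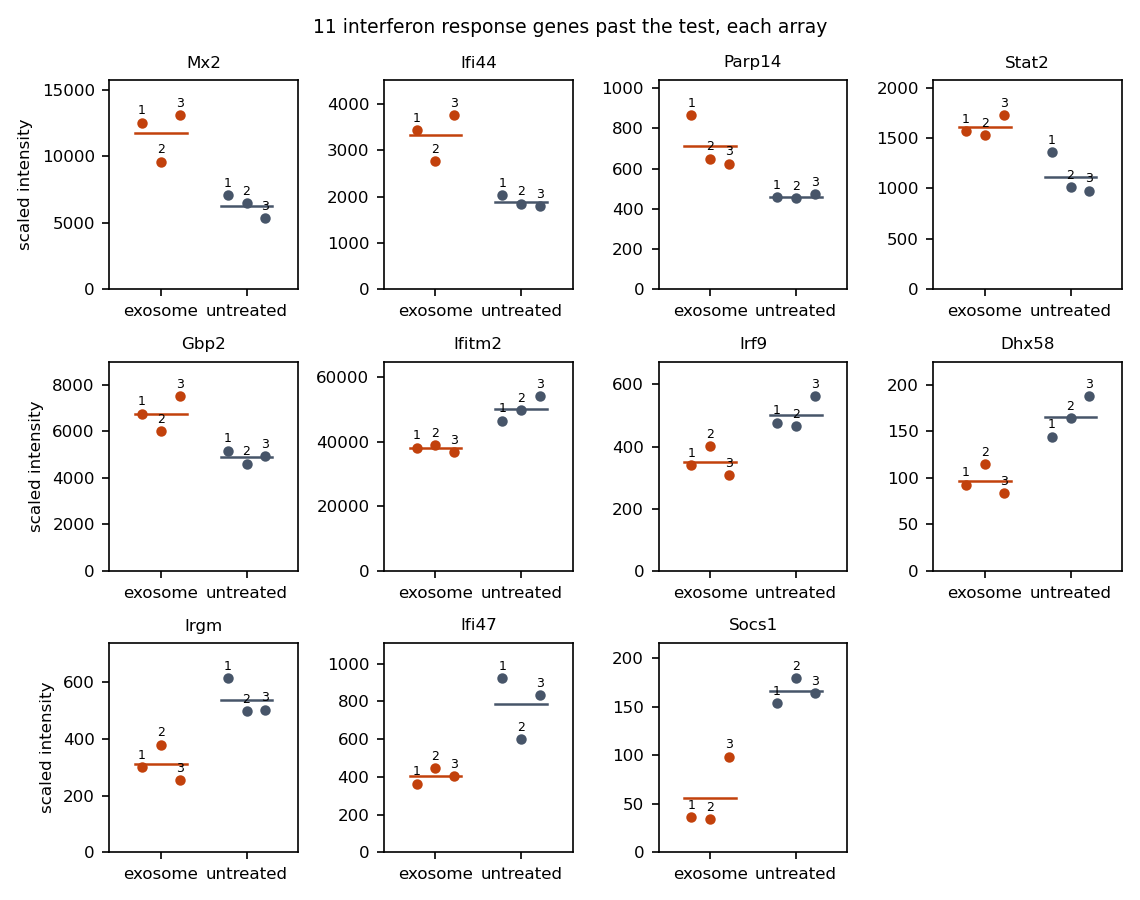
Scaled intensity (75th percentile of each array = 1000) of the 11 interferon response genes past the test on each array (points with the replicate number; lines, group means; exosome left, untreated right; every axis starts at 0). In all 11 genes the arrays of the groups do not overlap, as in 62.0% of all tested genes.

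The remaining 13 tested antiviral effectors did not pass. Isg15, a ubiquitin-like modifier that is attached to proteins, had 377.3, 374.7 and 421.1 on the exosome arrays against 355.4, 208.8 and 232.5 on the untreated arrays. The groups did not overlap, but untreated 1 lay close to the exosome arrays (0.60 ± 0.21, adjusted p = 0.061). Isg15 passed in each of the 5 other scalings, which are not independent of each other, with values of 0.46 to 1.01. Ifit3, a tetratricopeptide protein that in human cells strengthens binding of viral RNA by IFIT1, had 128.3, 125.7 and 108.5 on the exosome arrays against 131.6, 178.3 and 220.0 on the untreated arrays. Here too untreated 1 was next to the exosome arrays (−0.52 ± 0.20, adjusted p = 0.080). The paralogues of Ifitm2 had values of −0.28 for Ifitm1 and −0.30 for Ifitm3, with no overlap of the groups in either (adjusted p = 0.076 and 0.093; 0.13 and 0.11 under median centring), and near-identical copies within this family may share signal. Oasl2, of the oligoadenylate synthetase family, had −0.31 (adjusted p = 0.072) and Eif2ak2, the RNA-activated kinase that stops translation, had 0.35 (adjusted p = 0.155). Eif2ak2 passed at 0.76 under quantile normalization and median centring and in the authors' deposited table (adjusted p = 0.022, 0.019 and 0.022).

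Several genes often used as markers of a type I interferon response did not pass, most of them with values near 0 in the scaling reported here. Mx1, the nuclear relative of Mx2 in rodents, had 280.6, 291.7 and 305.9 on the exosome arrays against 291.4, 274.3 and 306.4 on the untreated arrays. The groups overlapped almost fully (0.01 ± 0.11). Oas1a, an oligoadenylate synthetase that activates RNA decay, had 0.04, and Bst2, which tethers budding virions, had 0.03. Ifi27 had 0.17, Ifit2 0.20 and the exonuclease Isg20 −0.13. Rsad2, whose product viperin makes a chain-terminating nucleotide, had 0.32 ± 0.77 and was above background on 4 of 6 arrays. Ifit1 was above background on 0 of 6 arrays and Oasl on 1 exosome array, so neither was tested. None of Mx1, Oas1a, Bst2, Ifi27, Ifit2, Isg20 and Rsad2 passed the test in the fit reported here, but some values were not near 0 in other scalings. Oas1a passed at 0.55 under quantile normalization and at 0.55 in the authors' deposited table (adjusted p = 0.036 in each), and Mx1 at 0.42 under median centring (adjusted p = 0.046). Under quantile normalization Mx1 had 0.21, Ifi27 0.22, Ifit2 0.51 and Rsad2 0.83, without passing.

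RNA sensors detect viral double-stranded RNA in the cytoplasm. Dhx58, which encodes LGP2 and tunes the other sensors, had 92.9, 114.4 and 83.9 on the exosome arrays against 144.3, 164.2 and 187.6 on the untreated arrays. Each exosome array was below each untreated one, and Dhx58 fell by 0.77 on the log2 scale (SE 0.17, 1.71-fold lower, adjusted p = 0.016, limma). Ifih1, which encodes the sensor MDA5, was above background on 2 exosome arrays and 0 untreated arrays and was not tested. By mean log2 values, its level on the exosome arrays was 1.91-fold that on the untreated arrays, without a test. The untreated values, 15.6, 14.6 and 14.9, did not count as above background, so the ratio is limited by signal and is no lower bound.

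The interferon-inducible GTPases assemble on membranes of vacuoles that hold pathogens, and their members moved in both directions. Gbp2, a guanylate-binding protein, had 6769, 6015 and 7504 on the exosome arrays against 5172, 4616 and 4926 on the untreated arrays. All exosome arrays were higher (0.46 ± 0.13, 1.37-fold, adjusted p = 0.031). Irgm, an immunity-related GTPase whose mouse counterpart regulates its relatives, had 300.5, 378.7 and 254.2 on the exosome arrays against 613.5, 497.0 and 501.3 on the untreated arrays. All exosome arrays were lower, and Irgm fell by 0.80 on the log2 scale (SE 0.18, adjusted p = 0.018). Ifi47, another immunity-related GTPase, had 364.1, 445.3 and 404.5 on the exosome arrays against 924.8, 601.4 and 834.7 on the untreated arrays. The untreated arrays spread more widely, but all lay above the exosome arrays (−0.94 ± 0.19, adjusted p = 0.014). Gbp5, which works in inflammasome assembly, had 0.27 ± 0.14 (adjusted p = 0.147), with 1 probe tested and the other above background on 0 of 6 arrays. Gbp5 passed at 0.51 under quantile normalization and in the authors' deposited table (adjusted p = 0.044 in each) and at 0.68 under median centring (adjusted p = 0.026).

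Igtp, the immunity-related GTPase also called Irgm3 in mice, was read by 2 probes that differed. The brighter had 20767, 17516 and 24480 on the exosome arrays against 19932, 17638 and 16790 on the untreated arrays. The groups overlapped (0.20 ± 0.16, adjusted p = 0.342). The dimmer had 351.8, 448.2 and 373.8 on the exosome arrays against 993.4, 674.1 and 781.9 on the untreated arrays. All its exosome arrays were lower (−1.05 ± 0.18, adjusted p = 0.011, limma), and it passed in each of the 6 fits of 5 arrays, with adjusted p-values of 0.012 to 0.048, but not under median centring (−0.64, adjusted p = 0.067). With the mean of both probes, Igtp had −0.43 and passed the test (adjusted p = 0.047), so that 1 GTPase rose and 3 fell, with a median of −0.43 in place of 0.20. The brighter probe passed under median centring (0.61, adjusted p = 0.047).

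The IRF factors switch on interferon genes and their targets, and of 5 tested Irf9 fell. Irf9, the DNA-binding partner of STAT2, had 339.3, 401.6 and 308.8 on the exosome arrays against 477.1, 465.5 and 561.1 on the untreated arrays. All exosome arrays lay below the untreated ones, and Irf9 fell by 0.52 on the log2 scale (SE 0.15, adjusted p = 0.032, limma), but it missed the test under quantile normalization (−0.38) and under median centring (−0.11). Irf3, which starts interferon production, had −0.14, Irf5 −0.04 and Irf7, which amplifies it, −0.21. Irf2, which competes with Irf1, was above background on 0 of 6 arrays. Irf8, a factor of myeloid cells, was above background on 1 untreated array and 0 exosome arrays. Its mean log2 level on the untreated arrays was 1.61-fold above the dimmest signals that counted as above background on the exosome arrays, without a test. That mean includes untreated arrays on which Irf8 did not count as above background, so the ratio is no lower bound.

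Irf1, the activator of gamma interferon targets, again had 2 probes that differed. The brighter had 6537, 4883 and 8412 on the exosome arrays against 6280, 3455 and 3273 on the untreated arrays. Untreated 1 lay among the exosome arrays (0.64 ± 0.31, adjusted p = 0.136). The dimmer had 58.9, 66.4 and 57.4 on the exosome arrays against 75.7, 88.4 and 104.1 on the untreated arrays. All its exosome arrays were lower (−0.54 ± 0.15, adjusted p = 0.031), but it missed the test under quantile normalization (−0.17). The probes of Eif2ak2 (0.35 and 0.20) and of Usp18 (−0.10 and −0.06) did not pass.

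The STAT factors carry the signal from receptor to nucleus. Stat2, of the type I pathway, had 1568, 1531 and 1729 on the exosome arrays against 1359, 1012 and 977.0 on the untreated arrays. All exosome arrays were higher, with untreated 1 nearest to them (0.54 ± 0.16, 1.46-fold, adjusted p = 0.036, limma). Stat3, which serves interleukin 6 more than interferon, had 6845, 6407 and 7186 on the exosome arrays against 6900, 4187 and 3375 on the untreated arrays. Untreated 1 was as high as the exosome arrays (0.56 ± 0.26, adjusted p = 0.121; 0.63, adjusted p = 0.037, with normexp background correction). Over the IRF and STAT factors together 1 of 7 tested rose and 1 fell, with a median of −0.04, against 3 that rose and 1 that fell of 17 antiviral effectors and 1 and 2 of 5 GTPases. Of all tested genes 14.6% rose and 29.2% fell, and these roles were not tested against each other.

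The chemokines of the pathway attract T cells through the receptor CXCR3. Cxcl10 had 226.4, 118.5 and 196.7 on the exosome arrays against 199.4, 35.8 and 48.5 on the untreated arrays. Untreated 1 lay within the exosome range and the spread was wide (1.31 ± 0.64, adjusted p = 0.139). Cxcl9 had 3.96, 59.2 and 38.6 on the exosome arrays against 59.6, 47.0 and 53.8 on the untreated arrays. The value rested on exosome 1, where the probe was not well above background (−1.35 ± 0.95, adjusted p = 0.282; −0.15 without exosome 1). Cxcl11 was above background on 0 of 6 arrays.

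Of the feedback inhibitors, Socs1 fell. Socs1, which binds and inhibits the receptor kinases, had 36.4, 34.2 and 98.4 on the exosome arrays against 153.7, 179.5 and 164.0 on the untreated arrays. Exosome 3 was well above exosome 1 and 2 yet below every untreated array, and Socs1 fell by 1.73 on the log2 scale (SE 0.40, 3.33-fold lower, adjusted p = 0.019, limma). Its relative Socs3, which chiefly restrains STAT3 signalling, had −0.47 ± 0.19 (adjusted p = 0.087), and Usp18, which removes Isg15 from proteins and blocks the type I receptor, had −0.10 ± 0.15.

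Untreated 1 lay apart within its group over all genes and in these. In 15 of 35 (42.9%) it lay nearer to the exosome mean than to the mean of the other untreated arrays, against 33.2% of all tested genes. Over all tested genes the share was 13.4% for untreated 2 and 16.1% for untreated 3. The same count was 11 of 35 (31.4%) for exosome 2 seen from its own side, against 35.4% of all genes, and 4 to 8 for each of the other arrays. Without untreated 1, 9 genes rose and 8 fell, where 14.3% of all genes rose and 29.9% fell. The genes that passed in this fit and not with all 6 arrays were Isg15 (0.83), Irf1 (0.94), Stat3 (0.86) and Cxcl10 (2.06), which rose, and Ifit3 (−0.72) and Socs3 (−0.62), which fell, with adjusted p-values of 0.016 to 0.038. Irf1 stands here for its brighter probe, and its dimmer probe fell past the test in the same fit (−0.66, adjusted p = 0.022, limma). What set untreated 1 apart was not tested.

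**Figure D4:**
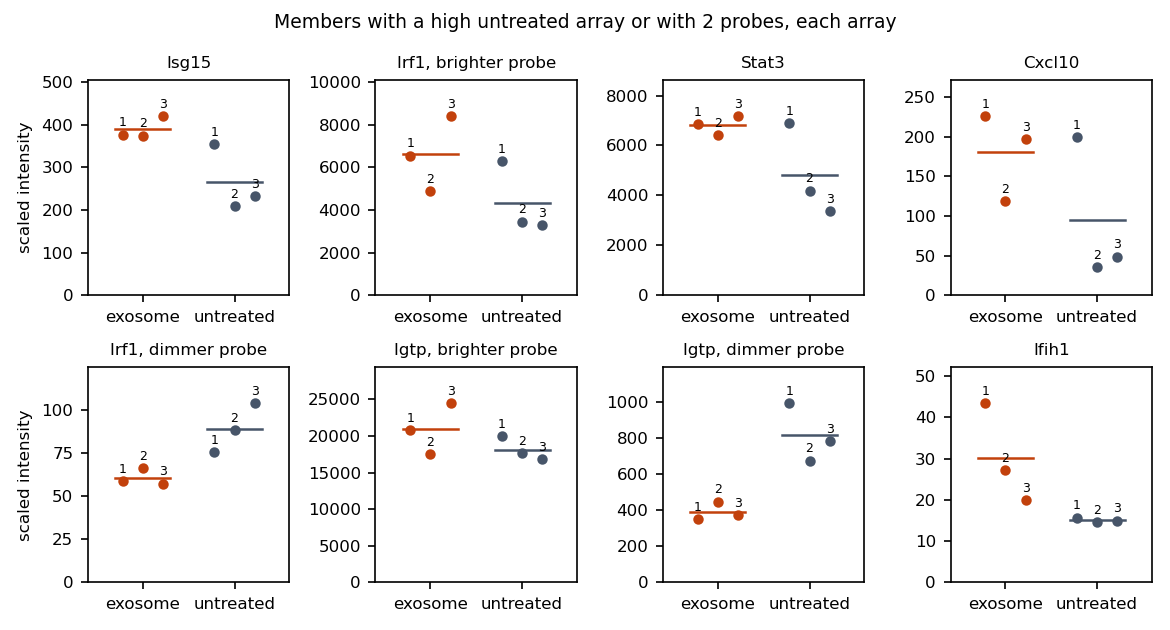
Scaled intensity on each array (points with the replicate number; lines, group means; exosome left, untreated right) of Isg15, Irf1, Stat3 and Cxcl10, in which untreated 1 lies near the exosome arrays, of both probes of Irf1 and Igtp, and of Ifih1. The dimmer Irf1 and Igtp probes are lower on all 3 exosome arrays, and the brighter ones overlap.

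None of the 11 genes passed in all 6 fits that each left out 1 array. Without untreated 2 only Ifi47 passed (−1.12, adjusted p = 0.047), and without untreated 3 none did, with 5 positive and 6 negative values at an unadjusted p below 0.05 from limma. Over all genes the same fits called 1.22% higher and 7.47% lower without untreated 2, and 1.92% and 9.08% without untreated 3. Mx2 and Ifi44 passed in 4 of 6 such fits and had adjusted p-values of 0.051 to 0.052 and 0.050 to 0.053 in the other 2, and Ifi47 passed in 5 and had 0.055 without untreated 3. Parp14, Dhx58, Irgm and Socs1 passed in 3, Gbp2, Ifitm2 and Irf9 in 2, and Stat2 in 1, without untreated 1. Without exosome 1, 2 rose and 1 fell (3.43% and 12.8% of all genes), and without exosome 3, 3 rose and 4 fell (6.99% and 21.7%). Without exosome 2, 4 rose and 6 fell (15.7% and 30.0%). The direction of each of the 11 was the same in all 6 fits. Of all tested genes 1.09% rose and 6.86% fell in the fit of 6 arrays and in all 6 fits of 5 arrays.

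**Figure D5:**
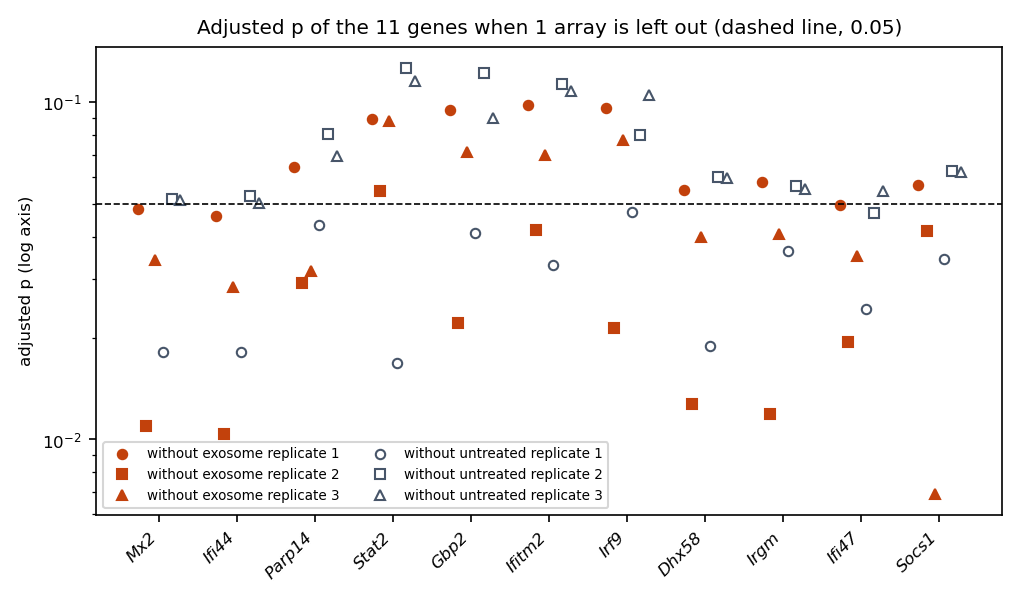
Adjusted p from limma (log axis) of the 11 interferon response genes past the test when 1 array is left out (filled symbols, an exosome array left out; open symbols, an untreated array left out; dashed line, 0.05). Without untreated 3 every gene lies above the line, and without untreated 2 every gene but Ifi47.

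Other settings were fitted on all 6 arrays. With normexp background correction 7 rose and 7 fell (17.9% and 35.3% of all genes), 9 and 4 in the authors' deposited table (20.2% and 16.2%), and under median centring 10 and 1 (33.8% and 7.98%). With the 75th percentile taken over probes 6 rose and 4 fell (18.9% and 24.1%), and without a filter on dim probes 3 and 5 of 41 (5.70% and 17.0%). With the replicate number as a block 2 rose and 4 fell (7.00% and 21.9%), and with scan as a random block 4 and 6 (10.8% and 24.7%). Mx2, Ifi44, Parp14, Gbp2 and Stat2 rose past the test in each of the 5 other scalings, normexp included, as Socs1 fell in each, whereas Dhx58, Irgm and Ifi47 missed it under median centring. These scalings are not separate checks. The deposited table gave nearly the same values as quantile normalization (0.85 for Mx2 in each). The 75th percentile over probes and median centring each shifted all reported values by a constant.

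The rest of the pathway was read from a further 75 listed genes of interferon production, reception and response, of which 53 had a probe and 42 were tested. Of these 5 rose and 8 fell, where 14.6% of all tested genes rose and 29.2% fell, and their median log2 change was 0.04. Interferon ligands themselves were mostly dim: the gamma interferon gene Ifng was above background on 0 of 6 arrays, and the beta interferon gene Ifnb1 on 2 untreated and 0 exosome arrays. The mean log2 level of Ifnb1 on the untreated arrays was 1.63-fold above the dimmest signals that counted as above background on the exosome arrays, and this was not tested. Ifna4, an alpha interferon gene of a family of near-identical copies, fell by 0.61 on the log2 scale (adjusted p = 0.017, limma). It missed the test under quantile normalization and in the authors' deposited table (−0.30 in each), under median centring (−0.20) and without exosome 1, untreated 2 or untreated 3 (−0.56, −0.57 and −0.63). The subunits of the gamma interferon receptor moved in opposite directions in the fit of all 6 arrays.

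Ifngr1, its ligand-binding chain, had 3556, 4278 and 3264 on the exosome arrays against 6661, 6208 and 7557 on the untreated arrays. All exosome arrays were lower (−0.88 ± 0.15, 1.85-fold lower, adjusted p = 0.011, limma), with −0.47 and no call under median centring (adjusted p = 0.057). Ifngr2, its signalling chain, had 6554, 5698 and 7449 on the exosome arrays against 5051, 4296 and 4153 on the untreated arrays. All exosome arrays were higher (0.54 ± 0.15, adjusted p = 0.030). Ifngr2 missed the test without exosome 1, exosome 3, untreated 2 or untreated 3 (adjusted p = 0.086, 0.070, 0.105 and 0.098, limma). It also missed with the replicate block (adjusted p = 0.063). The kinase Jak1, which serves both interferon receptors, had 596.5, 1626 and 1099 on the exosome arrays against 2066, 2362 and 2670 on the untreated arrays. Its exosome arrays spread widely below the untreated ones (−1.20 ± 0.35, adjusted p = 0.035). Jak1 missed the test under median centring (−0.79, adjusted p = 0.115, limma). Of the fits that left out 1 array, Jak1 passed only in that without exosome 2 (−1.54, adjusted p = 0.015). In the rest its adjusted p-values were 0.053 to 0.106. Ifna4, Ifngr2, Jak1, Parp9 and Trex1 were named after their values had been seen.

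Among other interferon-induced genes Rtp4, a chaperone of membrane receptors, rose by 0.84 ± 0.17 (adjusted p = 0.014, limma), Ube2l6, the enzyme that conjugates Isg15, by 0.57 ± 0.14 (adjusted p = 0.022) and Sp110, a nuclear body protein, by 0.48 ± 0.11 (adjusted p = 0.019). Shisa5, a protein of the endoplasmic reticulum, fell by 0.72 (SE 0.12, adjusted p = 0.011) and its second probe by 1.16. Tor3a, a torsin ATPase, fell by 0.97 (SE 0.18, adjusted p = 0.012) and Epsti1 by 0.66 (SE 0.12, adjusted p = 0.012). Parp9, which pairs with a ubiquitin ligase, and Trex1, a nuclease that removes cytoplasmic DNA, fell by 0.77 and 0.72. Epsti1 and Trex1 missed the test under quantile normalization (−0.28 and −0.43). Without untreated 2, 0 of the 42 rose and 4 fell (1.22% and 7.47% of all genes). Without untreated 3, 0 rose and 3 fell (1.92% and 9.08%). In each of these fits 5 positive values had an unadjusted p below 0.05 from limma. Under median centring, where 33.8% of all genes rose and 7.98% fell, 17 of the 42 rose and 0 fell, with 2 negative values at an unadjusted p below 0.05.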

How the data were processed

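Each array was read, per the file headers and the submitters' processing notes, with Agilent Feature Extraction 11.0.1.1. Per the file headers, the deposited array files give a processed intensity per spot, from which background was removed but which was not scaled across arrays. A deposited table of the whole series holds log2 values with equal column medians; it served as an alternative, treated as quantile normalized. Extraction, amplification and Cy3 labelling are as in the labels' protocols. The genome build behind the probe names is not given in the sources used here, so GRCr8 RefSeq served for names and promoters.

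Control spots and outlier spots (388 to 572 per array) were left out, spots of 1 probe were averaged, and the log2 intensity minus each array's 75th percentile was fitted with limma 3.58.1 (R 4.3.3) for all 6 arrays, exosome minus untreated, without covariates. Probes well above background on 3 or more arrays were tested, the brightest tested probe stood for a gene, and Benjamini-Hochberg adjustment ran over 20433 probes. Precision is limited by having 6 arrays. Tables and figures used Python 3.11.15 with pandas 2.3.3, numpy 2.4.6 and matplotlib 3.10.9.

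The genes, lists, tests and alternatives were chosen with earlier results of these data known. Values of every array are given for each gene past the test and for genes without overlap of the groups whose log2 change was 0.5 or more in size, and, as additions made after values were seen, for Mx1, Irf1, Igtp, Stat3, the chemokines and the receptor and kinase genes. Of other pathway genes the 4 of smallest p in each direction were named, except 1 that is not reported here and stays in the counts. Alternatives were a normexp background correction (offset 50), 4 other scalings, other filters on dim probes, limma trend, a replicate block, scan as a random block, the mean of a gene's probes and leaving out each array. Normexp used the median signal, the mean signal not being among the columns used here. Same-numbered arrays deviated from their group means with correlations of −0.09, −0.03 and −0.02, so the numbers were not taken as pairs.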

Additional observations from a re-analysis of the deposited data

How the results depend on the processing

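Of the interferon response genes 5 rose and 6 fell. The number that rose was 9 under quantile normalization, 9 in the authors' table, 10 under median centring, 3 without a filter on dim probes and 2 with the replicate block, and 0 to 9 when 1 array was left out. The number that fell was 1 under median centring and 0 to 8 when 1 array was left out. Of the other pathway genes 5 rose and 8 fell. The number that rose was 8 under quantile normalization, 8 in the authors' table, 17 under median centring, 2 with the replicate block and 0 to 7 without single arrays, and the number that fell was 5, 5 and 0 under those scalings and 3 to 10 without single arrays. Over all genes, 2213 rose and 1766 fell under quantile normalization, 3715 and 876 under median centring and 864 and 2584 without a filter. All 5 genes that rose passed in each of the 5 other scalings, which are not independent of each other. Of those that fell, Socs1 passed in 5, Dhx58, Irgm and Ifi47 in 4, and Ifitm2 and Irf9 in 1, normexp. With the replicate block, Mx2 and Ifi44 rose and Dhx58, Irgm, Ifi47 and Socs1 fell. Whether the numbers pair the arrays is not known here. Deviations of same-numbered arrays correlated at −0.09, −0.03 and −0.02, and the highest value, 0.10, was between exosome 1 and untreated 2. Values this small do not settle whether the block is the better design. With scan as a random block (consensus correlation 0.11), 4 rose and 6 fell.

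The median log2 change of the antiviral effectors was 0.04, and it was 0.22 under quantile normalization, 0.22 in the authors' table, 0.46 under median centring, 0.14 with the 75th percentile taken over probes (an alternative chosen after seeing the data), 0.13 without a filter, −0.0084 under normexp and 0.0017 to 0.11 without single arrays. That of the GTPases, 0.20, was 0.61 under median centring and −0.43 with the mean of probes. That of the IRF and STAT factors, −0.04, was 0.15 in quantile-normalized values, 0.15 in the authors' table and 0.38 under median centring. That of the other pathway genes, 0.04, was −0.030 under normexp, 0.15 under quantile normalization, 0.15 in the authors' table, 0.45 under median centring, 0.13 with the 75th percentile over probes, 0.083 with only probes above background on all 6 arrays and −0.019 to 0.075 without single arrays. These scalings moved the median of all genes from −0.19 to between −0.18 under normexp and 0.22 under median centring.

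Signs of single genes turned, Ifitm2 among the genes past the test. Under normexp they were those of Mx1 (−0.0084), Oas1a (−0.12) and Rsad2 (−0.20). Under median centring they were those of Oasl2 (0.11), Isg20 (0.29), Ifitm1 (0.13), Ifitm2 (0.013), Ifitm3 (0.11), Irf3 (0.28), Irf5 (0.38), Irf7 (0.20) and Usp18 (0.31). Irf5 had 0.15 and Usp18 0.14, both with quantile-normalized values and in the authors' table, and Irf5 had 0.058 with the 75th percentile over probes. Igtp had −0.43 with the mean of its probes. Without single arrays the range was −0.030 to 0.050 for Mx1, −0.0079 to 0.14 for Oas1a, −0.078 to 0.50 for Ifit2, −0.54 to 0.92 for Rsad2, −0.060 to 0.17 for Bst2, −0.087 to 0.018 for Irf5 and −0.35 to 0.0087 for Irf7. The cause of these changes was not tested. Genes near background are limited by signal: Oasl, Ifit1, Ifih1, Irf2, Irf8 and Cxcl11 were below the filter and were tested only without it, where Ifih1 had 0.93 (adjusted p = 0.065), Irf8 −2.09 (adjusted p = 0.024), and the other 4 did not pass.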
